A study of Mus musculus with 12 samples.

Results

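The 4 libraries examined here were poly(A) RNA-seq libraries of undifferentiated spermatogonia (Aundiff), the mouse germ cell population that holds the spermatogonial stem cells, and they were chosen by their labels from the 12 libraries of the series. The WT Aundiff group (2 libraries) came from untreated adult C57BL/6 males. The Win18,446 PRC1ctrl Aundiff group (2 libraries) came from males of the genotype Ring1-/-; Rnf2 F/+; Ddx4-Cre, labelled C57BL/6 X FVB/NJ, in which *Ring1* was absent from every cell and a single *Rnf2* allele was floxed with a Cre driven by the germ cell gene *Ddx4*. These males received Win18,446 in DMSO, at 40 µg/µl in 50 µl under the skin, in about 30 daily injections from an age of 1 month, and cells were taken 24 h after the last. Both groups were sorted as E-Cadherin-positive, CD9-high, KIT-negative cells pooled per library. Win18,446, DMSO, the loss of *Ring1*, the floxed *Rnf2* allele with Cre and strain differed together between the groups, and ages at sampling were not matched by the labels. Their effects cannot be told apart, and the libraries used here held no WT mice injected with DMSO and no *Ring1*-deficient mice without the drug that were prepared with the same kit.

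Win18,446 blocks the aldehyde dehydrogenases of the ALDH1A group, which make retinoic acid from retinaldehyde. In the testis, retinoic acid is the signal that moves Aundiff into differentiating spermatogonia (Adiff), through retinoic acid receptors that switch on genes such as *Stra8* and *Kit*, and mice given the drug keep Aundiff but lose later germ cells. Self-renewal of the stem cells depends on GDNF, received through GFRA1 and RET, and on FGF, which signals through ERK to factors such as ETV5. Polycomb repressive complex 1 (PRC1) marks histone H2A at repressed developmental genes through either of its catalytic subunits, RING1 and RNF2.

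The labels were first set against the targeted gene and the sort. *Ring1* (ENSMUSG00000024325, chromosome 17, 34020792 to 34024680 on GRCm38, minus strand) measured 8.61 and 10.4 TPM in WT and 0.04 and 0.14 TPM in Win18,446 PRC1ctrl, where TPM, the deposited unit, is a length-corrected share of the transcripts of each library. Its log2 fold change was -3.26 ± 0.22 (SE), adjusted p = 0.00123, on the log2(TPM + 1) scale used for every fold change here. The other catalytic subunit, *Rnf2*, measured 59.8 and 52.8 TPM in WT and 78.1 and 67.2 TPM in Win18,446 PRC1ctrl (log2 fold change 0.36 ± 0.13 (SE), adjusted p = 0.0739), and 86.2 and 93.1 TPM in the libraries labelled as lacking it (Win18,446 PRC1cKO). A gene-level value does not separate its floxed exons, so that deletion cannot be seen here. The sorted surface markers were present in both groups, with *Cdh1*, the gene of E-Cadherin, at 16.8 and 18.6 TPM in WT and 27.9 and 27.6 TPM in Win18,446 PRC1ctrl and *Cd9* at 168 and 174 TPM in WT and 138 and 122 TPM in Win18,446 PRC1ctrl. *Kit*, the marker sorted against, was low at 6.38 and 6.96 TPM in WT and 6.48 and 8.15 TPM in Win18,446 PRC1ctrl, and 247 and 245 TPM in the WT Adiff libraries. The germ cell RNA helicase gene *Ddx4* was at 208 and 183 TPM in WT and 307 and 284 TPM in Win18,446 PRC1ctrl.

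The promoters of *Stra8* and *Cyp26a1* are shown because both genes are textbook targets of retinoic acid and both were lower in the Win18,446 PRC1ctrl libraries. The sequences are the 250 bases before the RefSeq start site on GRCm38.p6, plus strand, at chr6:34920698-34920947 for *Stra8* and chr19:37697558-37697807 for *Cyp26a1*. Capitals mark each match to a hexamer that retinoic acid receptors can bind (AGGTCA and its variants, which are AGTTCA, then GGTTCA, and lastly GGGTCA, searched on both strands).
Stra8: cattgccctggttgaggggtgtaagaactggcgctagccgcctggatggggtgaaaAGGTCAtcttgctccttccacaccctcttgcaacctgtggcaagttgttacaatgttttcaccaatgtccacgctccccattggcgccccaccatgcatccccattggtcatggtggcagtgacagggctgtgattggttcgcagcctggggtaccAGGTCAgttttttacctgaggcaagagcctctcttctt
Cyp26a1: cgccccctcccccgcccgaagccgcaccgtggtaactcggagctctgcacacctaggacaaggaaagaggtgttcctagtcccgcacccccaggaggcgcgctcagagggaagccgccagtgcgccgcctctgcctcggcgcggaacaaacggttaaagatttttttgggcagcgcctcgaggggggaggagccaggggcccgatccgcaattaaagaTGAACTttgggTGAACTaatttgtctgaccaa
The *Stra8* window held AGGTCA at 194 to 189 and at 38 to 33 bases before the start, not arranged as a direct repeat with 2 or 5 bases between. The *Cyp26a1* window held AGTTCA on the minus strand (TGAACT as printed) at 32 to 27 and at 21 to 16 bases before the start, which makes a direct repeat with 5 bases between. Of 32817 RefSeq promoter windows of the same length, 38.6% held at least 1 such hexamer, 9.75% held at least 2 and 29 (0.0884%) held that direct repeat. A match is a description of letters and not evidence of binding.

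*Stra8* (ENSMUSG00000029848, chromosome 6, 34920163 to 34939344, plus strand), which germ cells need to enter meiosis, measured 66.2 and 53.2 TPM in WT and 10.7 and 12.4 TPM in Win18,446 PRC1ctrl. Both drug-treated libraries lay far below both WT libraries, with a log2 fold change of -2.27 ± 0.16 (SE), adjusted p = 0.00141. Its level was 7.91 and 7.9 TPM in the Win18,446 PRC1cKO libraries, labelled as lacking both catalytic subunits in germ cells, and 675 and 581 TPM in WT Adiff. *Cyp26a1*, which degrades retinoic acid, fell from 2.13 and 2.92 TPM to 0.08 and 0.26 TPM (log2 fold change -1.59 ± 0.23 (SE), adjusted p = 0.00469). It was at 3.69 and 6.93 TPM in WT Adiff and 0.24 and 0.25 TPM in Win18,446 PRC1cKO. Both drug-treated groups, which also shared the loss of *Ring1*, had a low level. In bulk libraries such as these, fewer cells of a type and less RNA per cell cannot be told apart.

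Differences were tested with limma on all 16602 genes with at least 1 TPM in at least 2 of the 4 libraries, and a gene was called higher or lower when its Benjamini-Hochberg adjusted p was under 0.05 and its log2 fold change lay beyond 1 in that direction. The p criterion alone was met by 42.5% of genes. In the Win18,446 PRC1ctrl libraries 2727 genes (16.4%) were called higher and 527 (3.17%) lower, and the groups did not overlap at 54.3% of genes in the higher and 19.6% in the lower direction. The median log2 fold change of all genes was 0.30, so that each value below is read against that shift. Scaling by the median of ratios moved the median to 0.0176 and raised the share of lower genes among the calls from 16.2% to 33.9%, and quantile normalization raised it to 48.2%. Without replicate 2 of Win18,446 PRC1ctrl 5 genes were called higher and 5 lower, and without replicate 1, 1076 and 224, in fits where a lone library was assumed to vary like the others. In these fits 5967 and 6458 genes had an unadjusted p under 0.05 against 8689 with all 4 libraries, the median log2 fold change was 0.29 and 0.33, and all 3254 called genes kept their sign. Without replicate 2 no list described below held a call. Of the 139 called genes among the lists and genes named below, 138 lost their call without replicate 2 and 67 without replicate 1. Median-of-ratios scaling ended 29 of these calls and quantile normalization 42, among them, under 1 or both, those of *Rdh10*, *Utf1*, *Ddit4*, *Cdkn1a*, *Tex12*, *Dnmt3l*, *Gapdh*, *Ldhb*, *mt-Atp6*, *Id1*, *Lyz2*, *Star*, *Rhox4g* and *Rhox8*. Over all fits that tested them, the calls of *Stra8*, *Gfra1*, *Etv5*, *Etv4*, *Dusp6*, *Prm1*, *Tet3*, *Dlk1* and *Ring1* were lost only without replicate 2. *Ring1* was not among the genes tested with a mean of at least 5 TPM. With 2 libraries per group, p-values measure only the spread between pools of cells, and the 2 libraries of a group correlated at r = 0.977 and 0.978 over genes against 0.923 to 0.930 between the groups.

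Genes with at least 1 TPM numbered 14811 and 15020 in the WT libraries and 16537 and 16599 in the Win18,446 PRC1ctrl libraries, while the mitochondrial share was 4.66 to 6.06% in all 4. The median level of the genes called higher was 1.98 and 2.08 TPM in WT and 8.14 and 9.02 TPM in Win18,446 PRC1ctrl. The genes called lower had medians of 6.93 and 7.32 TPM in WT and 1.64 and 1.66 TPM in Win18,446 PRC1ctrl. The plot of all genes shows the calls in the higher direction concentrated at low mean levels.

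**Figure D1:**
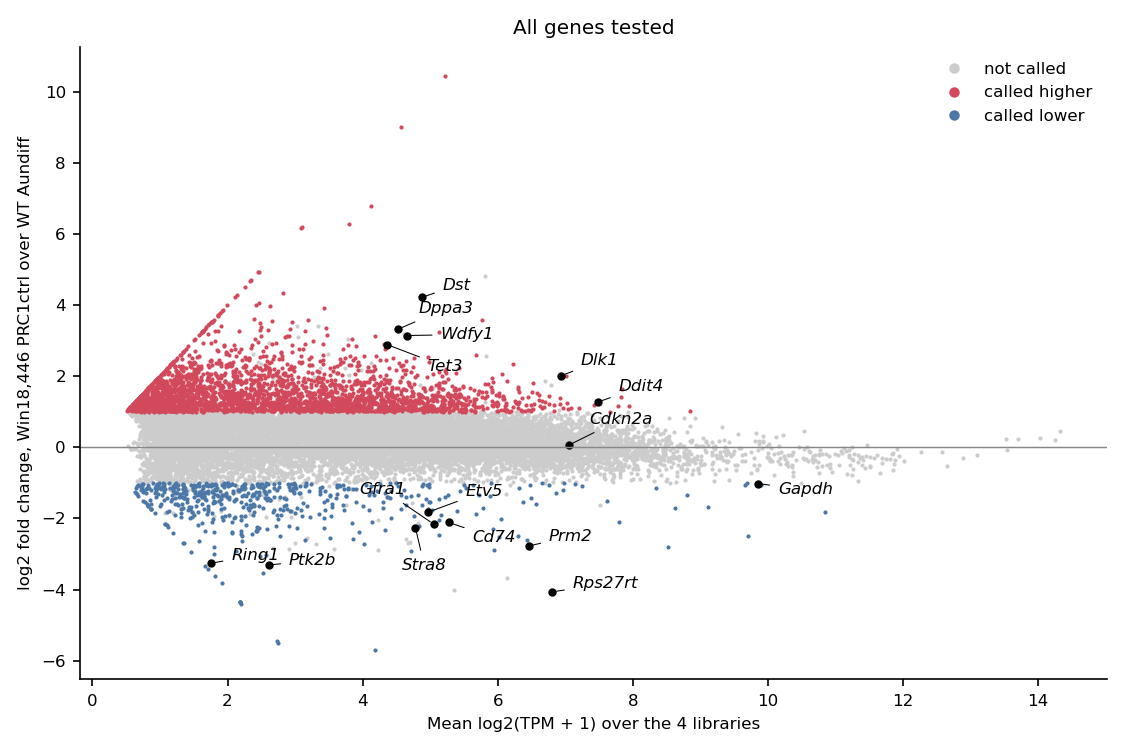
Each point is 1 of the 16602 genes tested, with the mean log2(TPM + 1) over the 4 libraries on the x axis and the log2 fold change of Win18,446 PRC1ctrl over WT Aundiff on the y axis. The 2727 genes called higher (red) lie mostly at low mean levels and the 527 called lower (blue) are fewer, with *Stra8*, *Gfra1* and *Etv5* among the lower and *Cdkn2a* near 0.

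Transcript length moved with the fold change. Over 13909 protein-coding genes, the median log2 fold change was -0.09 in the shortest quintile of transcripts (114 to 1654 bases) and 0.64 in the longest (5001 to 123179 bases). Calls in the higher direction went from 6.43% to 28.0% of genes across these quintiles, and calls in the lower direction from 7.69% to 0.612%. Both drug-treated libraries showed the trend, with medians from -0.08 to 0.60 in replicate 1 and from -0.09 to 0.69 in replicate 2, while the quintile medians of Win18,446 PRC1cKO over WT lay between -0.01 and 0.09. WT Adiff over WT Aundiff also increased with length, from -0.00818 in the shortest quintile to 0.22 in the longest. Among other gene classes, 136 of 290 transcripts annotated as still to be tested by experiment (TEC, 46.9%) and 33 of 48 sense-intronic RNAs (68.8%) were called higher. A fit with the length trend removed, chosen after the data were seen, called 1370 genes higher (8.26%) and 860 lower (5.19%), which brought the share of lower genes among the calls to 38.6%. A call named below that was lost in it is said to be lost without the length trend. Whether length, RNA quality or library preparation contributed to any single gene was not tested.

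**Figure D2:**
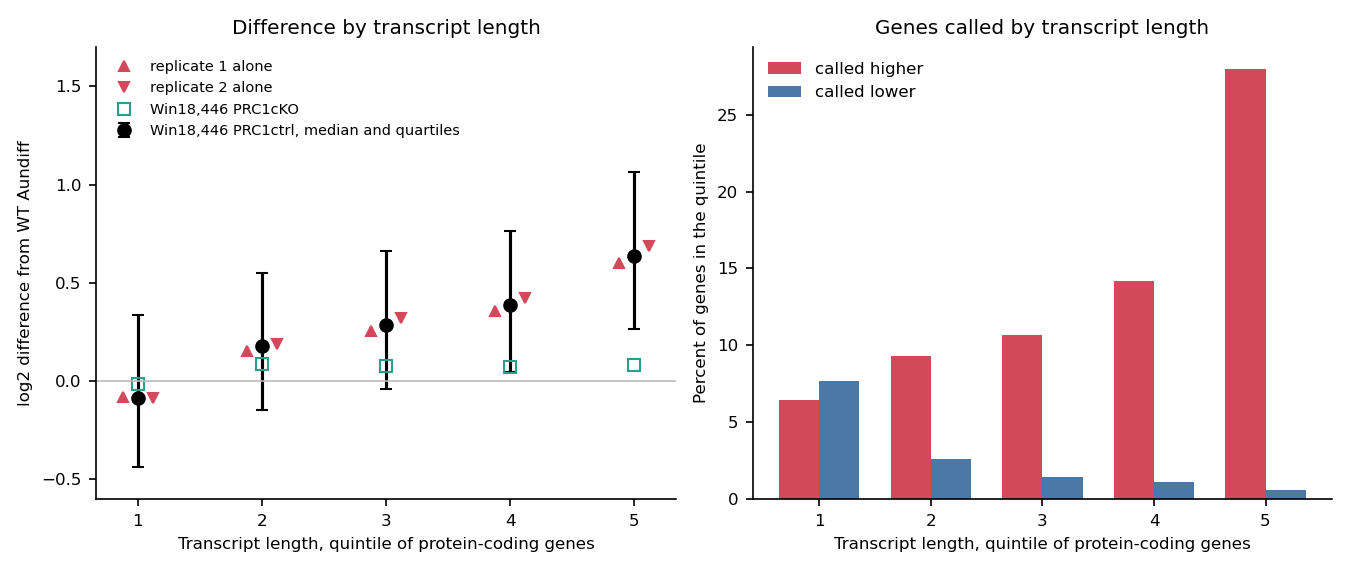
Left, median log2 fold change (y axis, with quartiles for the group comparison) of protein-coding genes by quintile of transcript length in bases (x axis), for Win18,446 PRC1ctrl over WT Aundiff, for each of its replicates and for Win18,446 PRC1cKO over WT. Right, percent of genes called per quintile, rising from 6.43% to 28.0% for higher calls and dropping from 7.69% to 0.612% for lower calls.

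Among 17 tested genes of retinoic acid synthesis, binding and reception, 1 was called higher and 2 lower, against 16.4% and 3.17% of all genes. Their median log2 fold change was 0.42 against 0.30 for all genes. Beside *Cyp26a1*, the synthesis gene *Aldh1a3* was lower, from 6.02 and 7.29 TPM to 2.45 and 2.39 TPM (log2 fold change -1.16 ± 0.2004 (SE), adjusted p = 0.00788). *Rdh10*, which makes retinaldehyde from retinol, was at 2.27 and 2.04 TPM in WT and 6.24 and 7.12 TPM in Win18,446 PRC1ctrl (log2 fold change 1.28 ± 0.1978 (SE), adjusted p = 0.00587), a call lost without the length trend. *Aldh1a2*, the gene of the drug's main target, had no overlap between groups at 25.96 and 24.1 TPM in WT and 50.7 and 48.04 TPM in Win18,446 PRC1ctrl, but its log2 fold change of 0.95 ± 0.12 (SE), adjusted p = 0.0039 did not reach the threshold of 1. It was at 42.05 and 45.9 TPM in Win18,446 PRC1cKO and 37.5 and 37.96 TPM in WT Adiff. *Aldh1a1*, high in Sertoli and Leydig cells, ranged from 5.93 and 8.31 TPM in WT to 73.6 and 15.9 TPM, with drug-treated libraries far from each other and no call (adjusted p = 0.13). In the wider family of 16 aldehyde dehydrogenase genes, *Aldh5a1*, of GABA breakdown, was the single higher call (1.43, lost without the length trend) and *Aldh1a3* the single lower one.

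The receptors and binding proteins were not called. *Rara* was at 22.9 and 35.6 TPM in WT and 41.1 and 53.8 TPM in Win18,446 PRC1ctrl, *Rarg*, the receptor that marks Aundiff able to respond to retinoic acid, at 61.4 and 71.8 TPM in WT and 83.1 and 96.1 TPM in Win18,446 PRC1ctrl, and *Rxra* at 63.3 and 80.5 TPM in WT and 59.03 and 67.3 TPM in Win18,446 PRC1ctrl. The retinoic acid binding gene *Crabp1* was at 140.5 and 157 TPM in WT and 146 and 172 TPM in Win18,446 PRC1ctrl, with overlapping groups. In WT Adiff *Crabp1* stood at 679 and 795 TPM, above all 4 libraries. *Cyp26b1*, the other degrading enzyme tested, overlapped as well at 1.22 and 2.42 TPM in WT and 1.99 and 1.5 TPM in Win18,446 PRC1ctrl.

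**Figure D3:**
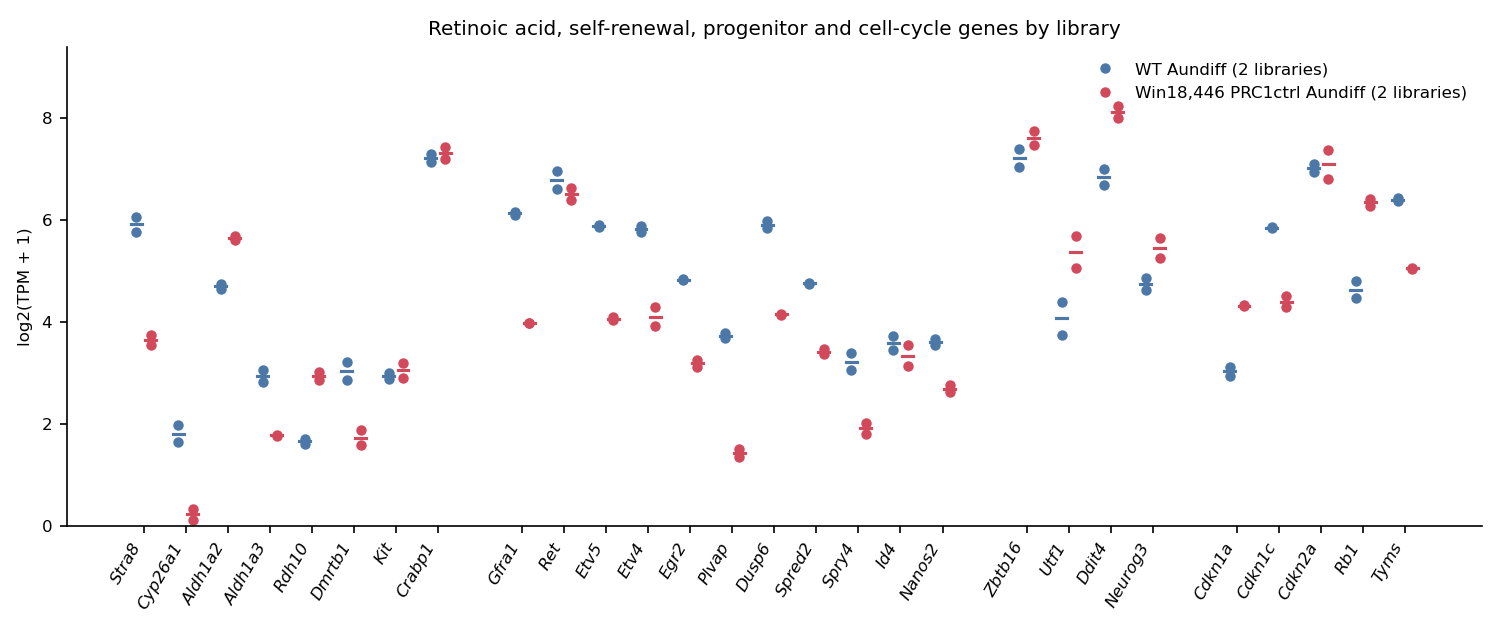
Level of each named gene as log2(TPM + 1) (y axis) in the 2 WT Aundiff libraries (blue) and the 2 Win18,446 PRC1ctrl Aundiff libraries (red), with the group mean as a bar. *Stra8*, *Cyp26a1*, *Gfra1*, *Etv5*, *Etv4*, *Dusp6* and *Plvap* are lower in both drug-treated libraries than in both WT libraries, *Ddit4* and *Rb1* are higher, and *Kit*, *Crabp1* and *Cdkn2a* overlap.

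The stem cell self-renewal list had more lower calls than any other list except that of spermatid genes. Of its 20 genes, 9 were called lower and none higher, against 3.17% and 16.4% of all genes, with a median log2 fold change of -0.91. The median stayed negative under both other scalings, where 11 and 12 members were called lower. With a mean of at least 5 TPM 14 members were tested and 4 were lower (median -0.49), and without Win18,446 PRC1ctrl replicate 1, 4 of 20 were lower (median -0.86). *Gfra1* (chromosome 19, 58235604 to 58455909), the GDNF receptor, measured 70.5 and 68.1 TPM in WT and 14.7 and 14.7 TPM in Win18,446 PRC1ctrl (log2 fold change -2.16 ± 0.12 (SE), adjusted p = 0.00102). *Etv5*, a transcription factor downstream of GDNF and FGF, was at 57.3 and 58.7 TPM in WT and 16.04 and 15.3 TPM in Win18,446 PRC1ctrl (log2 fold change -1.82 ± 0.12 (SE), adjusted p = 0.00126). *Egr2*, an early response factor induced by the same signals, was at 27.2 and 27.7 TPM in WT and 7.65 and 8.59 TPM in Win18,446 PRC1ctrl (log2 fold change -1.64 ± 0.15 (SE), adjusted p = 0.00192). In all of these the libraries of a group lay close together and the groups were far apart.

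*Plvap*, a marker of a stem cell subset, fell from 11.9 and 12.7 TPM to 1.55 and 1.83 TPM (log2 fold change -2.31 ± 0.19 (SE), adjusted p = 0.00178). The transcription factor genes *Lhx1*, *T*, *Eomes* and *Pdx1*, all found in rare stem cell subsets, were each under 5 TPM in WT and fell by 1.08, 1.33, 1.28 and 1.396 on the log2 scale. *Shisa6*, which modulates WNT signals in stem cells, was at 4.66 and 1.21 TPM in WT and 0.34 and 0.28 TPM in Win18,446 PRC1ctrl, and its WT libraries were themselves far apart (log2 fold change -1.43 ± 0.44 (SE), adjusted p = 0.0433). *Bcl6b* (25.9 and 29.5 TPM in WT and 14.1 and 14.7 TPM in Win18,446 PRC1ctrl) and *Nanos2* (10.8 and 11.7 TPM in WT and 5.16 and 5.78 TPM in Win18,446 PRC1ctrl), both needed for stem cell maintenance, did not overlap between groups, with log2 fold changes of -0.899 and -0.92 that missed the threshold of 1 and passed it without the length trend. *Ret*, the co-receptor of GFRA1, was at 96.7 and 124 TPM in WT and 82.7 and 97.8 TPM in Win18,446 PRC1ctrl, with overlap and an adjusted p of 0.2. *Id4*, an inhibitor of differentiation high in stem cells, overlapped too at 12.2 and 9.95 TPM in WT and 7.76 and 10.7 TPM in Win18,446 PRC1ctrl.

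Genes of the FGF and ERK feedback loop were called lower at 6 of 13 tested and higher at none, against 3.17% and 16.4% of all genes, with a median log2 fold change of -0.21. The count was 6 under both other scalings and without the length trend. It was 5 with all 12 libraries in the fit, and 5 of 10 tested with a mean of at least 5 TPM. The median was -0.13 without Win18,446 PRC1ctrl replicate 1 and -0.29 without replicate 2. *Etv5* belonged to this list as well. *Etv4*, a partner of ETV5, was at 53.3 and 58.2 TPM in WT and 14.1 and 18.5 TPM in Win18,446 PRC1ctrl (log2 fold change -1.72 ± 0.17 (SE), adjusted p = 0.00216). *Dusp6*, the phosphatase that switches ERK off and is induced by it, was at 56.2 and 61.9 TPM in WT and 16.6 and 16.8 TPM in Win18,446 PRC1ctrl (log2 fold change -1.76 ± 0.13 (SE), adjusted p = 0.00141). *Spred2* (25.9 and 26.3 TPM in WT and 9.33 and 10.01 TPM in Win18,446 PRC1ctrl), *Spry4* (9.46 and 7.27 TPM in WT and 2.48 and 3.06 TPM in Win18,446 PRC1ctrl) and *Dusp4* (4.3 and 5.95 TPM in WT and 1.26 and 1.39 TPM in Win18,446 PRC1ctrl), further inhibitors of the pathway, fell by 1.35, 1.31 and 1.39 on the log2 scale. Their relatives *Spry1*, *Spry2* and *Spred1* had log2 fold changes of -0.21, 0.37 and 0.25, none called. The receptor gene *Fgfr1* was at 26.3 and 40.5 TPM in WT and 55.2 and 67.2 TPM in Win18,446 PRC1ctrl, higher in both drug-treated libraries but below the fold threshold (log2 fold change 0.88 ± 0.22 (SE), adjusted p = 0.0246).

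The low level of *Gfra1* was also seen outside the comparison. It measured 15.7 and 16.1 TPM in Win18,446 PRC1cKO, 7.18 and 14.97 TPM in the untreated PRC1ctrl libraries and 3.55 and 4.06 TPM in WT Adiff. The untreated PRC1ctrl libraries were made from few cells with Smart-Seq2, another chemistry, so their levels are set beside the others without a test.

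Of 14 tested progenitor genes, which mark Aundiff on the way to differentiation, 2 were called higher and none lower, against 16.4% and 3.17% of all genes. Their median log2 fold change was 0.41, against 0.30 for all genes. *Utf1* was at 12.4 and 19.99 TPM in WT and 32.4 and 50.5 TPM in Win18,446 PRC1ctrl (log2 fold change 1.304 ± 0.29 (SE), adjusted p = 0.016) and *Ddit4*, a stress-induced inhibitor of mTORC1, at 102 and 128 TPM in WT and 255 and 303 TPM in Win18,446 PRC1ctrl (log2 fold change 1.27 ± 0.15 (SE), adjusted p = 0.0032). *Ddit4* was at 163 and 158 TPM in Win18,446 PRC1cKO, between the groups compared. *Neurog3*, the classical progenitor factor, was higher in both drug-treated libraries at 23.9 and 28.1 TPM in WT and 37.3 and 48.9 TPM in Win18,446 PRC1ctrl, with a log2 fold change of 0.6998 that missed the threshold. *Zbtb16*, the PLZF factor of all Aundiff, was at 131 and 167 TPM in WT and 176 and 216 TPM in Win18,446 PRC1ctrl (log2 fold change 0.39 ± 0.16 (SE), adjusted p = 0.099). *Sall4*, *Lin28a*, *Nanos3* and *Pou5f1* had log2 fold changes of -0.13, -0.04, -0.06 and 0.03, none called. Both calls of this list were lost under scaling by the median of ratios.

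The spermatogonial differentiation list, of 20 tested genes, had 1 higher and 2 lower calls, against 16.4% and 3.17% of all genes (median log2 fold change 0.10). After *Stra8*, the second lower gene was *Dmrtb1*, which coordinates the switch from mitosis to meiosis and which fell from 6.25 and 8.26 TPM to 1.99 and 2.68 TPM (log2 fold change -1.305 ± 0.23 (SE), adjusted p = 0.00831). WT Adiff held 147 and 182 TPM of *Dmrtb1* and Win18,446 PRC1cKO held 11.8 and 7.65 TPM. The higher gene was *Meioc*, which sustains meiotic prophase, at 3.78 and 3.25 TPM in WT and 9.26 and 14.7 TPM in Win18,446 PRC1ctrl (log2 fold change 1.49 ± 0.25 (SE), adjusted p = 0.00728). *Kit* overlapped between the groups (adjusted p = 0.673) and stood at 20.4 and 21.96 TPM in Win18,446 PRC1cKO. The other members included *Sohlh1*, a factor that drives differentiation, at 231 and 277 TPM in WT and 371 and 398 TPM in Win18,446 PRC1ctrl (log2 fold change 0.6029 ± 0.12 (SE), adjusted p = 0.0123). *Ccnd2*, a cyclin induced at the transition to Adiff, was at 103 and 115 TPM in WT and 67.4 and 27.4 TPM in Win18,446 PRC1ctrl, where replicate 2 of the drug-treated group was far lower than replicate 1 (adjusted p = 0.0828).

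Of 25 replication genes 1 was called lower and none higher, and of 25 mitosis genes 2 were called higher and none lower, against 3.17% and 16.4% of all genes called lower and higher. Their median log2 fold changes were -0.28 and -0.03. Lower calls among the replication genes numbered 4 under median-of-ratios scaling (median -0.60), 3 under quantile normalization and 3 without the length trend. The lower gene was *Tyms*, thymidylate synthase, at 85 and 81.5 TPM in WT and 32.1 and 32.2 TPM in Win18,446 PRC1ctrl (log2 fold change -1.35 ± 0.11 (SE), adjusted p = 0.0018). The other DNA synthesis genes *Rrm2* and *Mcm7* had log2 fold changes of -0.9019 and -0.86 and were not called here, but both passed the threshold under median-of-ratios scaling and without the length trend, and *Rrm2* also under quantile normalization. *Mki67*, carried by cycling cells, was at 7.02 and 6.73 TPM in WT and 7.98 and 8.78 TPM in Win18,446 PRC1ctrl (log2 fold change 0.25 ± 0.17 (SE), adjusted p = 0.275). The kinetochore genes *Cenpe* and *Cenpf*, called higher at 1.501 and 1.48, have transcripts of 7910 and 11130 bases, and both calls were lost without the length trend. The mitotic ubiquitin enzyme gene *Ube2c* was at 59.7 and 63.2 TPM in WT and 29.7 and 32.05 TPM in Win18,446 PRC1ctrl, just short of a lower call (log2 fold change -0.97). Without the length trend *Ube2c* was called lower (-1.21), and the mitosis list then had 0 higher calls and 1 lower. Of 10 cyclin genes 1, *Ccnb3*, was called higher (1.09, lost without the length trend), and the median was -0.32.

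The CDK inhibitor and RB family, of 10 genes, held 2 higher and 1 lower call, against 16.4% and 3.17% of all genes. *Cdkn1a*, the p21 gene, was at 6.69 and 7.65 TPM in WT and 18.9 and 19.03 TPM in Win18,446 PRC1ctrl (log2 fold change 1.29 ± 0.16 (SE), adjusted p = 0.00332). *Rb1*, needed for stem cell maintenance in the testis, was at 26.9 and 21.2 TPM in WT and 76.7 and 84.4 TPM in Win18,446 PRC1ctrl (log2 fold change 1.71 ± 0.15 (SE), adjusted p = 0.00192), with 44.4 and 45.4 TPM in Win18,446 PRC1cKO. *Cdkn1c*, the imprinted p57 gene, fell from 57.5 and 56.2 TPM to 18.7 and 21.6 TPM (log2 fold change -1.45 ± 0.13 (SE), adjusted p = 0.00196). *Cdkn2a*, the gene of p16 and p19ARF and a classical PRC1 target, was at 123 and 136 TPM in WT and 111 and 165 TPM in Win18,446 PRC1ctrl with full overlap (log2 fold change 0.07 ± 0.19 (SE), adjusted p = 0.801). Its level was 141 and 158 TPM in Win18,446 PRC1cKO and 190.1 and 245 TPM in WT Adiff, against 1.67 and 2.76 TPM in the Smart-Seq2 libraries of untreated PRC1ctrl. *Cdkn2b*, its neighbour, was at 4.61 and 5 TPM in WT and 4.98 and 5.69 TPM in Win18,446 PRC1ctrl.

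Among 21 PRC1 subunit genes, *Ring1* was the single lower call and 3 were higher, against 3.17% and 16.4% of all genes. The higher genes were *Cbx6* (1.34), *Phc3* (1.75) and *Bcor* (1.47), each lost without the length trend. The subunits *Bmi1*, *Pcgf5* and *Pcgf6* had log2 fold changes of 0.71, 0.68 and 0.64, and none was called. The 15 genes of PRC2, which methylates histone H3 at lysine 27, and of the matching demethylases held 1 higher and 1 lower call. Of all genes 16.4% were called higher and 3.17% lower. *Aebp2* was called higher (1.02, lost without the length trend). *Phf19*, an accessory subunit, was called lower at 2.63 and 4.02 TPM in WT and 0.91 and 0.81 TPM in Win18,446 PRC1ctrl (log2 fold change -1.199 ± 0.24 (SE), adjusted p = 0.0124). *Ezh2*, the methyltransferase, was at 17.9 and 16.4 TPM in WT and 31.7 and 24.97 TPM in Win18,446 PRC1ctrl (log2 fold change 0.69 ± 0.17 (SE), adjusted p = 0.0209). The Hox clusters, best known Polycomb targets, had 18 of 39 genes above the filter. Of these 1 was called higher and none lower, against 16.4% and 3.17% of all genes. The call was *Hoxb3*, at 2.7 and 4.52 TPM in WT and 7.35 and 9.26 TPM in Win18,446 PRC1ctrl (log2 fold change 1.03 ± 0.26 (SE), adjusted p = 0.0233, lost without the length trend). The Hox gene *Hoxb7* was at 13.2 and 11.5 TPM in WT and 20.03 and 20.3 TPM in Win18,446 PRC1ctrl, not called.

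**Figure D4:**
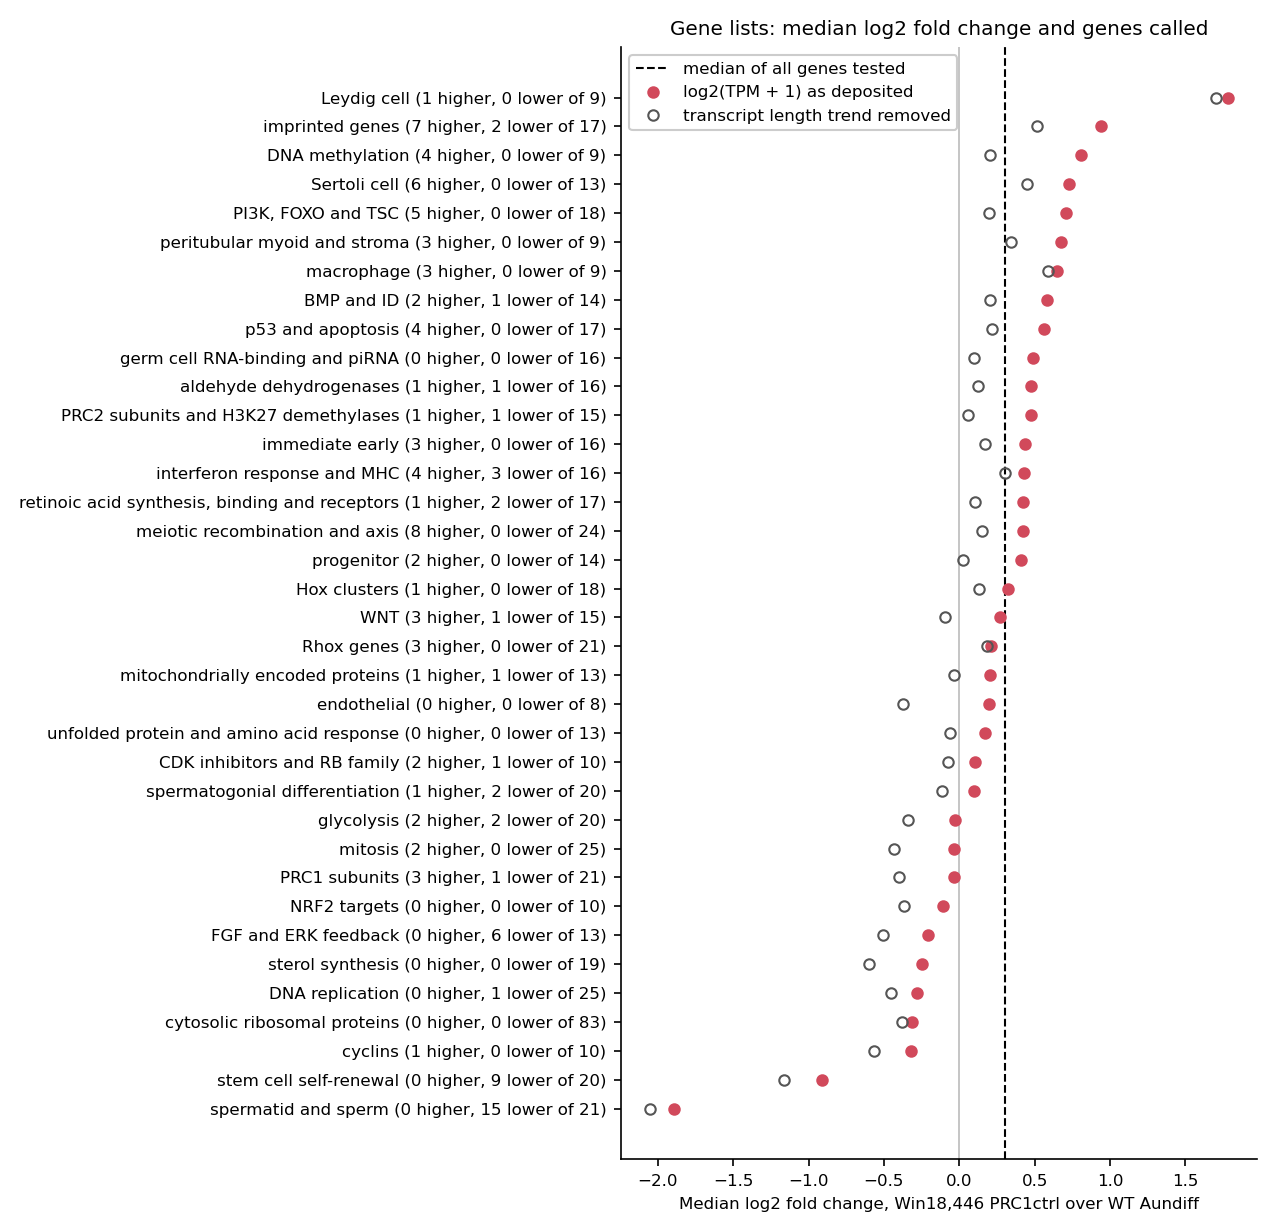
Median log2 fold change (x axis) of each of the 36 gene lists, with the numbers of genes called among those tested given beside each name, on the deposited scale (filled) and with the transcript length trend removed (open). The spermatid and self-renewal lists stand at -1.89 and -0.91, left of the dashed median of all genes at 0.30, and the Leydig cell and imprinted lists stand to its right at 1.78 and 0.94, the Leydig value being 0.89 without Win18,446 PRC1ctrl replicate 1 and 3.24 without replicate 2.

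Spermatid and sperm genes had the largest share of lower calls, 15 of 21 tested with none higher, against 3.17% and 16.4% of all genes. Their median log2 fold change was -1.89, against 0.30 for all genes. The median was below -1.89 under both other scalings. *Prm1* and *Prm2*, the protamines that pack sperm DNA, were at 199.7 and 227 TPM in WT and 32.05 and 36.02 TPM in Win18,446 PRC1ctrl and at 222 and 236 TPM in WT and 35.4 and 29.9 TPM in Win18,446 PRC1ctrl, with log2 fold changes of -2.61 and -2.78. The transition proteins that precede them differed in the same direction, *Tnp1* at 181 and 192 TPM in WT and 36.8 and 27.8 TPM in Win18,446 PRC1ctrl and *Tnp2* at 156 and 180.2 TPM in WT and 22.2 and 21.2 TPM in Win18,446 PRC1ctrl. Summed over the list, spermatid RNA was 1169 and 1235 TPM in WT, 278 and 252 TPM in Win18,446 PRC1ctrl, 91.3 and 103 TPM in Win18,446 PRC1cKO and 895 and 1060 TPM in WT Adiff. The source of these transcripts in cells sorted as E-Cadherin-positive, CD9-high and KIT-negative, and the cause of the difference, were not tested.

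The meiotic list had 8 higher and no lower calls among 24 genes, against 16.4% and 3.17% of all genes, with a median log2 fold change of 0.42 beside 0.30 for all genes. The calls numbered 6 higher under each of the other scalings, with 2 lower under quantile normalization, where the median was 0.04. Without the length trend 7 were higher. With trends on transcript length and GC content removed, 3 were higher and 1 lower. The median was 0.54 without Win18,446 PRC1ctrl replicate 1. *Sycp2*, of the axis of meiotic chromosomes, was at 2.5 and 2.18 TPM in WT and 19.7 and 24.1 TPM in Win18,446 PRC1ctrl (log2 fold change 2.77 ± 0.19 (SE), adjusted p = 0.00123), with 3.5 and 3.74 TPM in Win18,446 PRC1cKO. *Tex15*, needed for recombination and for silencing transposons, was at 37.7 and 27.6 TPM in WT and 154 and 181 TPM in Win18,446 PRC1ctrl (log2 fold change 2.33 ± 0.18 (SE), adjusted p = 0.00152). The synaptonemal complex genes *Sycp1*, *Sycp3* and *Tex12* rose by 1.63, 1.37 and 1.19 on the log2 scale, and *Hormad1* by 1.45. *Spo11*, which makes the breaks that start recombination, was at 2.08 and 0.68 TPM in WT and 5.81 and 6.82 TPM in Win18,446 PRC1ctrl (log2 fold change 1.68 ± 0.33 (SE), adjusted p = 0.0108). *Dmc1*, the meiotic recombinase, was at 23.5 and 12.1 TPM in WT and 9.38 and 10.6 TPM in Win18,446 PRC1ctrl, lower in both drug-treated libraries and not called (adjusted p = 0.11). None of 16 genes of germ cell RNA binding and the piRNA pathway was called by limma, against 16.4% of all genes higher and 3.17% lower. Of the 16, 10 had an unadjusted p under 0.05 by limma, against 8689 of all 16602 genes. *Dazl* was at 371 and 282 TPM in WT and 602 and 542 TPM in Win18,446 PRC1ctrl and *Mov10l1* at 169 and 192 TPM in WT and 324 and 324 TPM in Win18,446 PRC1ctrl (log2 fold changes 0.82 and 0.84).

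Markers of somatic testis cells differed between libraries of a group. The 13 Sertoli genes tested had 6 higher and no lower calls, against 16.4% and 3.17% of all genes. Their median log2 fold change was 0.73, and 0.67 without Win18,446 PRC1ctrl replicate 1. Median-of-ratios scaling left 5 higher calls (median 0.59) and quantile normalization 4 (median 0.14). The 6 included *Clu* at 27.3 and 31.3 TPM in WT and 136 and 78.6 TPM in Win18,446 PRC1ctrl (log2 fold change 1.79 ± 0.26 (SE), adjusted p = 0.0052) and *Inha*, the inhibin subunit, at 1.63 and 4.24 TPM in WT and 16.6 and 11.5 TPM in Win18,446 PRC1ctrl (log2 fold change 1.998 ± 0.36 (SE), adjusted p = 0.00913). *Sox9* and *Wt1*, which define Sertoli cells, overlapped at 0.59 and 1.18 TPM in WT and 1.48 and 1.04 TPM in Win18,446 PRC1ctrl and at 9.37 and 10.9 TPM in WT and 11.6 and 9.98 TPM in Win18,446 PRC1ctrl, and *Amh* was under the filter. Leydig markers summed to 27.7 and 55.9 TPM in WT and 477 and 99.4 TPM in Win18,446 PRC1ctrl, so that replicate 1 stood apart. The median log2 fold change of the 9 Leydig genes tested was 1.78, 0.89 without that replicate and 3.24 without replicate 2. *Insl3*, the main Leydig product, was at 16.5 and 30.1 TPM in WT and 292 and 64.5 TPM in Win18,446 PRC1ctrl and not called (adjusted p = 0.142), and *Star* was the single Leydig call (log2 fold change 1.46 ± 0.36 (SE), adjusted p = 0.023, lost without the length trend).

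Macrophage markers had 3 higher and no lower calls among 9 tested, against 16.4% and 3.17% of all genes. The calls were *Lyz2* at 4.36 and 6.31 TPM in WT and 18.8 and 10.6 TPM in Win18,446 PRC1ctrl and the complement genes *C1qa* and *C1qc*. Of the 9, 3 had negative log2 fold changes. Without overlap between groups 5 were higher and 2 lower, against 54.3% and 19.6% of all genes. *Adgre1*, *Csf1r* and *Cx3cr1* did not pass the filter. Stroma and peritubular markers had 3 higher and no lower calls among 9, against 16.4% and 3.17% of all genes. Their median log2 fold change was 0.67, and 0.46 without Win18,446 PRC1ctrl replicate 1. It was 0.29 without WT replicate 1 and 1.7 without WT replicate 2. The calls were led by *Col1a1* at 9.56 and 14.7 TPM in WT and 62.3 and 88.8 TPM in Win18,446 PRC1ctrl (log2 fold change 2.55 ± 0.25 (SE), adjusted p = 0.00226) and *Dcn* at 0.24 and 1.04 TPM in WT and 15.6 and 4.99 TPM in Win18,446 PRC1ctrl. The smooth muscle gene *Acta2* was at 3.75 and 28.96 TPM in WT and 20.9 and 9.82 TPM in Win18,446 PRC1ctrl, with overlap. Summed Sertoli RNA was 130 and 131 TPM in WT, 344 and 228 TPM in Win18,446 PRC1ctrl and 365 and 240 TPM in Win18,446 PRC1cKO. Macrophage sums were 26.5 and 33.6, 60.8 and 40.3, and 45.4 and 33.1 TPM in the same order, and stroma sums 19.3 and 67.5, 128 and 126, and 65.2 and 62.6 TPM. None of 8 endothelial genes was called by limma (0 had an unadjusted p under 0.05), against 16.4% of all genes called higher and 3.17% lower. *Pecam1* was at 2.36 and 6.64 TPM in WT and 3.63 and 3.55 TPM in Win18,446 PRC1ctrl. Under quantile normalization no Leydig or macrophage gene was called. The part of somatic RNA in the other differences was not tested.

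Imprinted genes, expressed from a single parental allele, held 7 higher and 2 lower calls among 17, against 16.4% and 3.17% of all genes, and 4 and 2 without Win18,446 PRC1ctrl replicate 1 (median log2 fold change 0.94). *Dlk1* (chromosome 12, 109452823 to 109463336), a Notch-related growth regulator, was at 58.7 and 61.1 TPM in WT and 229.5 and 258 TPM in Win18,446 PRC1ctrl (log2 fold change 2.01 ± 0.11 (SE), adjusted p = 0.000946), with 311 and 395 TPM in Win18,446 PRC1cKO. *Rian*, a noncoding RNA of the same imprinted region, was at 12.4 and 9.9 TPM in WT and 48.3 and 51.7 TPM in Win18,446 PRC1ctrl and *Peg10*, a gene derived from a retrotransposon, at 2.83 and 3.87 TPM in WT and 25.2 and 24.9 TPM in Win18,446 PRC1ctrl. *H19*, a noncoding growth suppressor, moved the other way at 68.4 and 87.9 TPM in WT and 20.5 and 22.5 TPM in Win18,446 PRC1ctrl (log2 fold change -1.805 ± 0.16 (SE), adjusted p = 0.0019), and *Igf2* beside it was not called (log2 fold change 0.15). *Impact*, *Zim1* and *Igf2r* were called higher and lost without the length trend.

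Of 9 genes of DNA methylation, 4 were called higher and none lower, against 16.4% and 3.17% of all genes. Their median log2 fold change was 0.81, and 0.84 without Win18,446 PRC1ctrl replicate 1. Under quantile normalization 2 were called higher. With a mean of at least 5 TPM 7 were tested and 2 were higher, with a median of 0.16 against 0.25 for all genes. *Tet3* (chromosome 6, 83362373 to 83459084), which oxidises methylcytosine, was at 5.67 and 7.56 TPM in WT and 47.1 and 64.04 TPM in Win18,446 PRC1ctrl (log2 fold change 2.89 ± 0.21 (SE), adjusted p = 0.00142), and at 8.08 and 12.99 TPM in Win18,446 PRC1cKO. *Tet2* was at 0.34 and 0.89 TPM in WT and 6.39 and 8.09 TPM in Win18,446 PRC1ctrl (log2 fold change 2.37 ± 0.26 (SE), adjusted p = 0.00279) and *Tet1* was called at 1.27, lost without the length trend. *Dnmt3l*, the cofactor of germline methylation, was at 6.57 and 10.7 TPM in WT and 21.3 and 23.6 TPM in Win18,446 PRC1ctrl (log2 fold change 1.32 ± 0.23 (SE), adjusted p = 0.00848). The methyltransferases *Dnmt1* and *Dnmt3a* had log2 fold changes of -0.04 and 0.16. Of 21 Rhox genes, an X-linked homeobox family expressed in the testis, 3 were called higher, near the 16.4% of all genes. The 3 were *Rhox4a*, *Rhox4g* and *Rhox8*. *Rhox4a* was listed at 0 in both WT libraries and was at 7.51 and 6.61 TPM in Win18,446 PRC1ctrl. Several members of this family are near-identical copies, so the split of reads between them is uncertain.

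The interferon and MHC list held 4 higher and 3 lower calls among 16 genes tested, against 16.4% and 3.17% of all genes. Its calls divided by class. The class II genes, which present antigen on immune cells, fell together, *Cd74* at 60.5 and 104 TPM in WT and 19.6 and 15.7 TPM in Win18,446 PRC1ctrl (log2 fold change -2.12 ± 0.27 (SE), adjusted p = 0.00367), *H2-Aa* at 35.4 and 50.2 TPM in WT and 13.6 and 10.5 TPM in Win18,446 PRC1ctrl and *H2-Ab1* at 26.96 and 46.3 TPM in WT and 8.16 and 6.8 TPM in Win18,446 PRC1ctrl. *Cd74* was at 115 and 70.4 TPM in Win18,446 PRC1cKO, within or above the WT range. The class I genes *H2-D1* and *H2-K1* were called higher at 1.15 and 1.04, as was the interferon-induced *Isg15* at 1.01, and all 3 were lost without the length trend. *Usp18*, which limits interferon signals, was at 2.68 and 1.98 TPM in WT and 8.98 and 7.96 TPM in Win18,446 PRC1ctrl (log2 fold change 1.51 ± 0.21 (SE), adjusted p = 0.00441). Strain, genotype and treatment cannot be told apart for these genes, and the part of cell content was not tested.

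Among 17 p53 and apoptosis genes 4 were called higher, near the 16.4% of all genes, and 1 without Win18,446 PRC1ctrl replicate 1. Of these, *Bbc3*, the PUMA gene, was also called without the length trend, at 0.8 and 1.05 TPM in WT and 4.98 and 6.48 TPM in Win18,446 PRC1ctrl (log2 fold change 1.8 ± 0.23 (SE), adjusted p = 0.00367). *Trp53* and *Mdm2* were not called (0.36 and 0.56). Of 16 immediate early genes 3 were called higher, near the 16.4% of all genes. The 3 were led by *Jun* at 1.91 and 4.21 TPM in WT and 18.6 and 23.5 TPM in Win18,446 PRC1ctrl (log2 fold change 2.495 ± 0.31 (SE), adjusted p = 0.00346), with *Fos* and *Btg2* lost without the length trend and *Egr1* not called (0.14). In the PI3K, FOXO and TSC list all 18 genes tested had positive values, as had 11409 of all 16602 genes, and 5 were called higher, against 16.4% of all genes. The calls included *Pik3ca* at 11.5 and 11.3 TPM in WT and 38.1 and 28.1 TPM in Win18,446 PRC1ctrl, and those of *Pik3ca*, *Pik3r1*, *Irs2* and *Insr* were lost without the length trend. In the BMP list, *Id1*, a target of BMP signals, was at 0.78 and 2.8 TPM in WT and 5.52 and 5.45 TPM in Win18,446 PRC1ctrl (log2 fold change 1.32 ± 0.37 (SE), adjusted p = 0.034), and the inhibitor *Smad6* fell from 3.72 and 5.87 TPM to 1.33 and 1.51 TPM. The BMP receptor gene *Bmpr2* and the WNT genes *Lrp6*, *Axin2* and *Wnt5a* were called higher and lost without the length trend. Under quantile normalization 1 gene each stayed called higher in the p53 and immediate early lists, 2 in the PI3K list and none in the WNT list.

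Glycolysis genes had 2 calls in each direction among 20, against 16.4% higher and 3.17% lower of all genes. Their calls were 0 higher and 3 lower under median-of-ratios scaling and 0 higher and 1 lower under quantile normalization. The glucose transporter gene *Slc2a1* was at 61.4 and 75.5 TPM in WT and 29.7 and 30.7 TPM in Win18,446 PRC1ctrl (log2 fold change -1.15 ± 0.14 (SE), adjusted p = 0.00351) and *Gapdh* at 1236 and 1392 TPM in WT and 648 and 645 TPM in Win18,446 PRC1ctrl (log2 fold change -1.02 ± 0.1021 (SE), adjusted p = 0.00232). *Ldhb*, a lactate dehydrogenase subunit, was called higher at 27.4 and 26.03 TPM in WT and 73.9 and 48.8 TPM in Win18,446 PRC1ctrl (log2 fold change 1.14 ± 0.21 (SE), adjusted p = 0.009). Of 13 mitochondrially encoded genes 1 was called higher and 1 lower, against 16.4% and 3.17% of all genes. *mt-Co2* fell from 2320.4 and 1682 TPM to 409 and 300.1 TPM and *mt-Atp6* rose from 253 and 407 TPM to 693 and 620.5 TPM. Replicates of other groups lay far apart, with *mt-Co2* at 775 and 2366 TPM in WT Adiff and *mt-Atp6* at 938 and 370 TPM in Win18,446 PRC1cKO. No gene was called among 83 cytosolic ribosomal protein genes, 19 of sterol synthesis, 13 of the unfolded protein response or 10 targets of NRF2. Of all genes 16.4% were called higher and 3.17% lower. The median log2 fold changes of these lists were -0.31, -0.25, 0.17 and -0.11. By limma, 47, 10, 4 and 2 of their genes had an unadjusted p under 0.05. For the ribosomal genes 78 of 83 values were negative, and the median moved to -0.03 under quantile normalization and -0.64 under scaling by the median of ratios.

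The largest rises among protein-coding genes, with 12 named by size, were each still called without the length trend. *Dst*, a very long cytoskeletal linker gene, was at 4.96 and 6.84 TPM in WT and 105 and 152 TPM in Win18,446 PRC1ctrl (log2 fold change 4.22 ± 0.23 (SE), adjusted p = 0.000946) and at 13.6 and 29.5 TPM in Win18,446 PRC1cKO. *Ryr2*, a calcium channel gene, was at 0.46 and 0.22 TPM in WT and 18.3 and 23.01 TPM in Win18,446 PRC1ctrl, and *Kmt2d*, which methylates histone H3 at lysine 4, at 8.06 and 13.4 TPM in WT and 95.02 and 121 TPM in Win18,446 PRC1ctrl. *Dppa3*, known in primordial germ cells and oocytes, was at 7.1 and 5.55 TPM in WT and 78.6 and 65.9 TPM in Win18,446 PRC1ctrl (log2 fold change 3.32 ± 0.17 (SE), adjusted p = 0.000918). It was at 82.2 and 73.8 TPM in Win18,446 PRC1cKO and 149.7 and 158 TPM in untreated PRC1ctrl, above WT in each. *Phyhip* was at 1.28 and 1.3 TPM in WT and 25.2 and 25.7 TPM in Win18,446 PRC1ctrl, at 20.7 and 22.5 TPM in Win18,446 PRC1cKO and at 0.01 and 0.21 TPM in untreated PRC1ctrl. The other 7 of the 12 largest were *Gm5751*, *Gm47283*, *Myom1*, *Kcp*, *Onecut2*, *Gnal* and *Gm21897*, with log2 fold changes from 3.196 to 3.98.

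Of the largest falls, *Ring1*, *Oaz3*, *Tnp2* and *Prm2* belonged to groups already described. *Ptk2b*, a cytoplasmic tyrosine kinase gene, was at 16.3 and 20.4 TPM in WT and 1.03 and 0.85 TPM in Win18,446 PRC1ctrl (log2 fold change -3.31 ± 0.2046 (SE), adjusted p = 0.00119), and *Rps27rt*, an intronless copy of a ribosomal gene, at 449 and 467 TPM in WT and 24.8 and 28.1 TPM in Win18,446 PRC1ctrl (log2 fold change -4.07 ± 0.11 (SE), adjusted p = 0.000134). Both were below all 4 WT libraries in all 8 libraries of the *Ring1*-deficient line, with *Ptk2b* at 0 and 0.01 TPM in untreated PRC1ctrl and 0.94 and 0.88 TPM in Win18,446 PRC1cKO, and *Rps27rt* at 80.2 and 74.5 and 73.01 and 56.8 TPM. *Gm50139* was listed at 0 in both drug-treated libraries against 19.8 and 20.6 TPM in WT. All of its exon bases are shared with another gene on the same strand, as are those of *Gm49337* and *Gm15517*, so their values are uncertain. *Wdfy1*, outside the 12 largest and named after its values were seen, was at 5.95 and 9.27 TPM in WT and 71.4 and 76.1 TPM in Win18,446 PRC1ctrl, at 41.4 and 52.8 TPM in untreated PRC1ctrl and at 61.6 and 62.9 TPM in Win18,446 PRC1cKO. Strain, genotype and line cannot be told apart for these genes.

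Side by side over the 12 libraries, *Stra8* was lowest in the Win18,446-treated groups, while *Gfra1* was lower in every other group than in both WT Aundiff libraries. *Prm1* was at 280.4 and 684 TPM in untreated PRC1ctrl and 0 and 0.19 TPM in Win18,446 PRC1cKO. *Etv5* was at 4.29 and 6.28 TPM in untreated PRC1ctrl, 12.6 and 14.8 TPM in Win18,446 PRC1cKO and 2.62 and 2.77 TPM in WT Adiff. *Clu* was at 2.24 and 9.52 TPM in untreated PRC1ctrl and 138 and 77.1 TPM in Win18,446 PRC1cKO. Differences between the TruSeq and the Smart-Seq2 libraries were not tested.

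**Figure D5:**
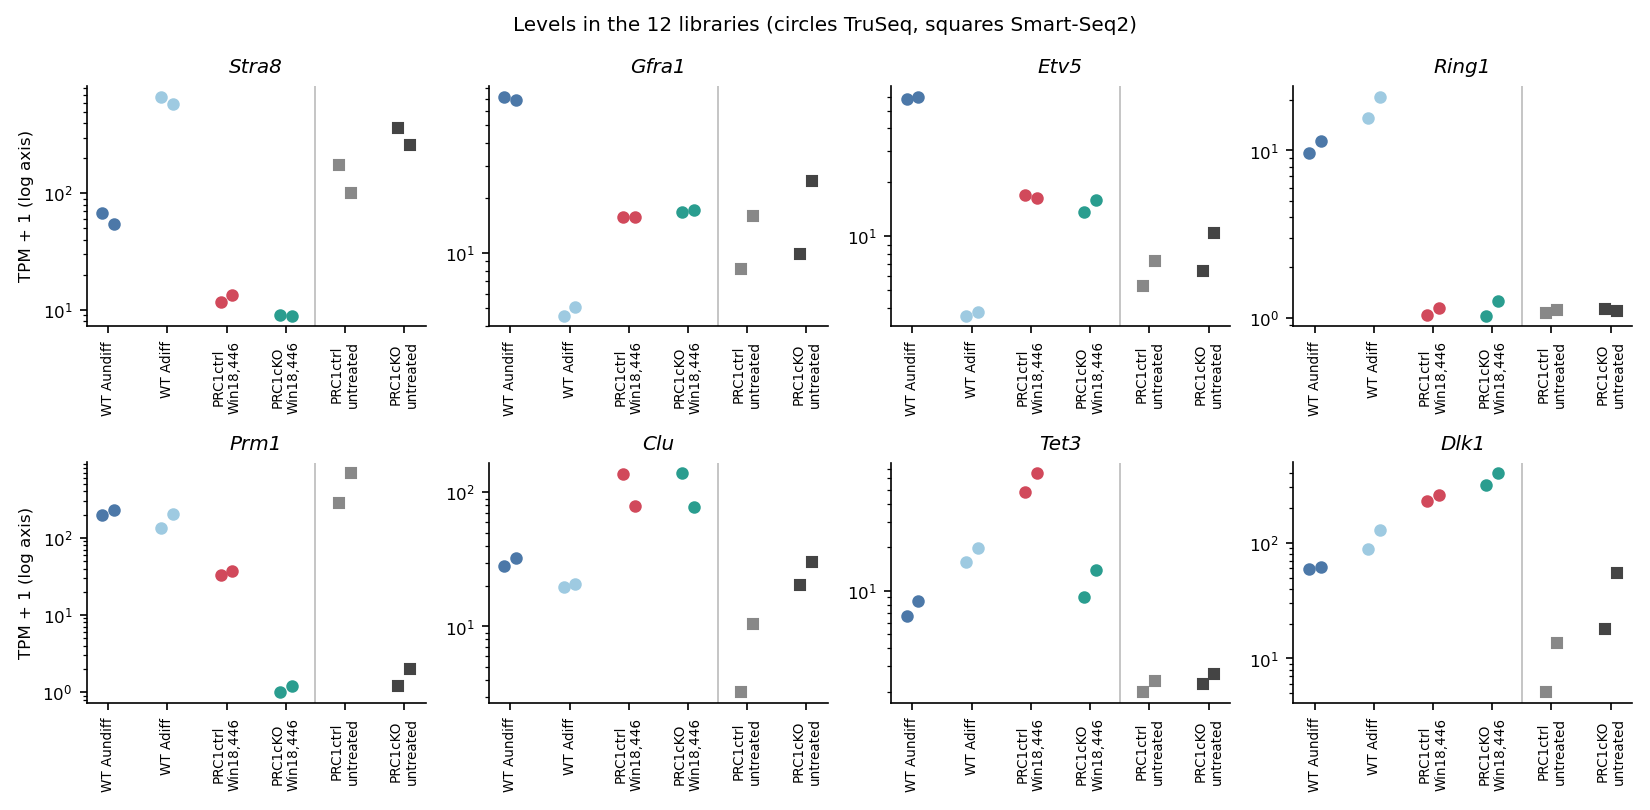
TPM + 1 on a log axis (y) of 8 genes in each of the 12 libraries, grouped by the 6 groups of the series (x), with circles for TruSeq and squares for Smart-Seq2 libraries. *Stra8* is at 10.7 and 12.4 TPM in Win18,446 PRC1ctrl against 66.2 and 53.2 TPM in WT Aundiff, and *Tet3* is at 47.1 and 64.04 TPM against 5.67 and 7.56 TPM.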

How the data were processed

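RNA was measured in Aundiff sorted from mouse testes, 2 WT and 2 Win18,446 PRC1ctrl libraries prepared with the TruSeq stranded poly(A) kit. The authors deposited TPM (a length-corrected share of transcripts) for 55385 genes, computed with RSEM 1.3.3 on GRCm38, and the submitters' processing notes also name Trim Galore 0.6.6, HISAT2 2.2.1, SAMtools 1.9, HTSeq 1.6.0 and DESeq2 1.28.1. Every library has the same TPM total, which ties each gene's share to all the others, and the read depth behind a value, and thus its counting error, is unknown. Of the identifiers, 55144 were found in gencode vM21, 54851 with the same coordinates, and 27 names turned into dates by a spreadsheet were read through their identifiers.

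Values were compared as log2(TPM + 1), with genes of at least 1 TPM in at least 2 of the 4 libraries, by limma 3.58.1 in R 4.3.3 (moderated variances with trend and robust options, 2 residual degrees of freedom, two-sided), with Benjamini-Hochberg adjustment over all genes tested. SE is that of the fold change (n = 2 libraries per group). The smallest two-sided exact permutation p with 2 against 2 is 0.333, so no single value was tested that way. The fit was tested on simulated data with known changes. Genes named were *Stra8*, *Cdkn2a*, *Ring1* and *Rnf2*, the 12 largest protein-coding changes in each direction among called genes with groups that did not overlap and a mean of at least 5 TPM in the higher group, called members of 36 gene lists, list members with defining roles or high levels, and *Nnt*. The comparison, members and lists were chosen with earlier results of these data known. Alternatives were another pseudocount (0.1), no filter, a mean of at least 5 TPM, median-of-ratios and quantile scaling, removal of mitochondrial genes, fits with 8 or 12 libraries, a replicate block, no trend or robust option, and each library left out. Fits with a lowess trend (span 0.3) on transcript length, or on length and GC content, removed were added after the data were seen. Promoters were taken from RefSeq. Columns of the remaining 8 libraries were used for levels and for the fits with 8 or 12 libraries only.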

Additional observations from a re-analysis of the deposited data

How the results depend on the processing

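All 3254 called genes kept their direction under every alternative that tested them other than the trend removals, where 3243 (length) and 3232 (length and GC) of 3248 did, and none of the 139 called genes of the lists reversed in any. Genes called higher numbered 1420 with a mean of at least 5 TPM, 1721 with median-of-ratios scaling, 1181 with quantile normalization, and, in fits chosen after the data were seen, 1370 without the length trend and 1311 without the length and GC trend. Genes called lower numbered 244, 884, 1098, 860 and 874 in the same order. Leaving out each library gave 5 to 2962 higher and 5 to 560 lower genes. Blocking on the replicate numbers gave 2744 higher and 535 lower genes, but same-numbered libraries deviated together with a correlation of only 0.0746, and no label pairs them. The median log2 fold change of all genes was 0.35 with a pseudocount of 0.1, 0.14 without a filter, 0.25 with a mean of at least 5 TPM, 0.0176 with median-of-ratios scaling, -0.00803 with quantile normalization, -0.0297 without the length trend and -0.02955 without the length and GC trend. The cause of these shifts was not tested. Without counts, the counting error of low genes is not known.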

Other observations

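Other classes of genes also differed in how often they were called higher. Of 26 small nucleolar RNA genes tested 15 (57.7%) were called higher, against 34.8% of processed pseudogenes, 25.2% of lincRNAs and 13.7% of protein-coding genes. Small nucleolar RNAs guide modification of ribosomal RNA and are not polyadenylated, so their level in poly(A) libraries is uncertain.

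*Nnt*, whose C57BL/6J allele carries a deletion, was looked at as a check of strain. The table lists it under a pair of identifiers, both at or below 2.13 TPM in all 12 libraries. Their exons overlap by 47.4% and 100%, so that the values could not separate the strains.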
